A study of Mus musculus with 15 samples.

Results

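The enzymes that make cholesterol and fatty acids, together with the genes that control them, were followed by RNA sequencing in cultured mouse hepatocytes. Members were taken by gene symbol from a list of 36 genes in a table of 38087 gene rows. The symbols of 35 were found as written. Msmo1 stood under its older symbol Sc4mol and was matched by gene identifier. The 36 genes were split into 17 sterol synthesis enzymes, 14 fatty acid synthesis genes and 5 regulators. All 36 had enough counts to be tested, among 17405 genes that were, though Elovl3 passed the low-count filter only through the male libraries.

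The cells were cryopreserved primary hepatocytes of CD-1 donor mice, plated at 200000 cells per well, given 6 h to attach in plating medium, and then kept in a defined incubation medium until the next day. The incubation medium held 6.25 µg/ml insulin, 5.35 µg/ml linoleic acid and 0.1 µM dexamethasone, all of which can act on lipid synthesis. Maintenance medium with 25% mouse serum followed for 24 h, and growth hormone or its vehicle was added for 2 h before RNA was taken. Of 15 samples in 5 groups, 13 libraries could be matched to a column: 3 of female cells in germ-free (GF) female serum with 8 ng/ml growth hormone, 2 of female cells in GF female serum with vehicle, 3 of male cells in serum of conventionally raised (ConvR) males, 3 of female cells in ConvR male serum and 2 of female cells in ConvR female serum. GF mice carry no microbiota. The labels do not say how many donor animals the male or the female cells came from, so the sex of the cells and their donor cannot be told apart. The labels do not say whether replicates were separate cultures or serum pools. The p-values therefore measure the spread between these libraries, which may be technical.

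Sterol regulatory element-binding proteins (SREBPs) are membrane-bound transcription factors, encoded by Srebf1 and Srebf2. SCAP escorts them to the Golgi, where they are cut and released to the nucleus, and the INSIG proteins hold SCAP back in the endoplasmic reticulum when sterols are plentiful. In liver, the product of Srebf2 mainly drives cholesterol synthesis and the SREBP1c product of Srebf1 mainly drives fatty acid synthesis, which insulin also stimulates. Insig1 is itself a target of SREBPs. Insig2 has a liver transcript, Insig2a, that insulin lowers. Mlxipl encodes ChREBP, the carbohydrate-responsive factor that acts beside SREBP1c on lipogenic genes.

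SREBPs bind sterol response elements, commonly beside sites for NF-Y, a factor that reads CCAAT. RefSeq promoter windows (GRCm38.p6, 250 bases before to 50 after each start) were found for 29 of the 36 members. These made 39 windows in all, searched on both strands. Fdft1, Sqle, Fdps, Scd1, Scd2, Elovl3 and Fads1 had no window. The only windows of Acaca and Acacb lie inside the gene, downstream of its annotated first base, so other promoters of these genes were not searched. The letters CCAAT stood in at least 1 window of 26 of the 29 members (89.7%), against 41.1% of 27025 genes in the whole table. TCACNCCAC, a form of the sterol response element, stood in windows of 2 members, Hmgcs1 and Mlxipl (6.90%), against 1.44% of all genes. The full element SRE-1, searched as 10 letters, stood in 0 members and in 0.0999% of all genes. GGGCGG, which Sp1 binds, stood in 22 members (75.9%) and in 38.2% of all genes, and the E-box CACGTG in 6 members (20.7%) and in 8.09% of all genes. These are letter matches only. Windows are shown for the genes with the largest differences between sera (Insig1, Insig2, Fasn and Gpam) and for Hmgcs1, the enzyme with the highest level, whose window holds both kinds of letters. Capitals mark CCAAT or TCACNCCAC on either strand.
Insig1 (chr5:28071162-28071461, plus strand): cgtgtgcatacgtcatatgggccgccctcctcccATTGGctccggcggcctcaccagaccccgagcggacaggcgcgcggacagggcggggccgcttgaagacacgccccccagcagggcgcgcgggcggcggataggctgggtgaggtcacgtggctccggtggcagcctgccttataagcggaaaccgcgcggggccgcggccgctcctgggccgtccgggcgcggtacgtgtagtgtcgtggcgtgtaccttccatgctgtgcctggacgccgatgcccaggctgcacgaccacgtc
Insig2, upstream start (chr1:121332540-121332839, minus strand): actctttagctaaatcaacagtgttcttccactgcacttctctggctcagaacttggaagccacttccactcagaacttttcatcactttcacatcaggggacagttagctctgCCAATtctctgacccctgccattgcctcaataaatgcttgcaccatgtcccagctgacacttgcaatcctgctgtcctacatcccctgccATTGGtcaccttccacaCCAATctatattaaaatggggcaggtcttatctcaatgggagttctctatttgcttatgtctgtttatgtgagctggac
Insig2, downstream start (chr1:121327975-121328274, minus strand): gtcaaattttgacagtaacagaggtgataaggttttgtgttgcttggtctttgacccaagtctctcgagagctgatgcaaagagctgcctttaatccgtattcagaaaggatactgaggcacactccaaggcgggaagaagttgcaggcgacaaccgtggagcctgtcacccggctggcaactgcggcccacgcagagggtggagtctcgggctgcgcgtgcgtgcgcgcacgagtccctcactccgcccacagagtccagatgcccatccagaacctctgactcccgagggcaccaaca
Fasn (chr11:120824498-120824797, minus strand): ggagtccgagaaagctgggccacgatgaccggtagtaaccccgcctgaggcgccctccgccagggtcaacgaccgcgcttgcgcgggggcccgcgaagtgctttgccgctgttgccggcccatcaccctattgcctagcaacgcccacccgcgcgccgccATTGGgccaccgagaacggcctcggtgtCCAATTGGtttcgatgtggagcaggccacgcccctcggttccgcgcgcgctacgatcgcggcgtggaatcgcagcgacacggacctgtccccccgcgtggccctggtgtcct
Gpam (chr19:55127189-55127488, minus strand): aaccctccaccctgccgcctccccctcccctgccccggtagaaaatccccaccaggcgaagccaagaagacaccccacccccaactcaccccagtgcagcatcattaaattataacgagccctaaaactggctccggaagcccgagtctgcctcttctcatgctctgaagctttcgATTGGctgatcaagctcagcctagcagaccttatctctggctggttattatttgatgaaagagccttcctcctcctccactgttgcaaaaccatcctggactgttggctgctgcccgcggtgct
Hmgcs1 (chr13:119690101-119690400, plus strand): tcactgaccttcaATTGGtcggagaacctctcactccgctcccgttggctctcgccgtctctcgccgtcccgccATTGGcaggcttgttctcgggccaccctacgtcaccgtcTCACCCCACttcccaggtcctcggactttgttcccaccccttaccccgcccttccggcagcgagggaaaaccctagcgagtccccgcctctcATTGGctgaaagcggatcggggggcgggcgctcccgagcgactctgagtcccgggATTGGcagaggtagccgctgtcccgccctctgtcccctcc
The upstream start of Insig2 held CCAAT at 3 places and both downstream starts, of which 1 is shown, at 0. The counts are per gene and do not separate transcripts from these starts. For Gpam, the window shown is that of the upstream of 2 starts.

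Levels are given in CPM, the count scaled to library size with TMM factors, and levels of different genes are compared only per kilobase of exon. As the mean of the 5 group means, the highest levels per kilobase were those of Hmgcs1, the cytosolic HMG-CoA synthase (74.5 CPM per kb), Acly, which makes cytosolic acetyl-CoA from citrate (55.8), Scd1, the stearoyl-CoA desaturase of liver (46.4), and Msmo1, a sterol C4 demethylase (41.5). Insig1 (30.4) and Insig2 (26.4) stood 7th and 9th of the 36. This order of the pair was not the same in every group: Insig2 was above Insig1 in male cells (42.7 and 32.2 CPM per kb) and in ConvR female serum (27.7 and 21.2 CPM per kb). Srebf1 (10.7), Srebf2 (8.99) and Mlxipl (5.50) were lower. Acaca, the main acetyl-CoA carboxylase of lipogenic tissue, was at 2.33 CPM per kb and its relative Acacb, which restrains mitochondrial fatty acid uptake, at 1.06. Elovl3, an elongase, and Scd2, the desaturase that is abundant in brain, had the lowest levels, at 0.226 and 0.181 CPM per kb. The Elovl3 mean was carried by male cells (0.886 CPM per kb). In the groups of female cells Elovl3 was close to the limit of detection. It ran there from 0.0526 to 0.0722 CPM per kb, below Scd2 (0.122 to 0.189).

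Library totals ran from 34097400 to 48742274 counts, and the 36 members together made up 0.271% to 0.312% of them. The 6 hepatocyte markers summed to 11518 to 15157 CPM in the female cells and 26523 to 27117 CPM in the male cells. The 4 macrophage markers summed to 76.1 to 165 CPM, the cholangiocyte markers to 10.2 to 31.4, the endothelial markers to 6.83 to 25.6, the stellate cell markers to 3.97 to 12.5 and the adipocyte markers to 0.102 to 0.584. The nuclear RNA Xist was highest in growth hormone replicate 1 (685 CPM) and next in ConvR female serum replicate 2 (482 CPM), against 268 to 395 CPM in the other libraries of female cells, so results were also computed without both. Bulk RNA cannot separate fewer cells of a type from less RNA per cell.

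In female cells, GF female serum and ConvR male serum were each compared with ConvR female serum, so the comparisons share their control libraries and are not independent. In both, the INSIG genes had the lowest adjusted p-values of the members and moved in opposite directions: Insig1 rose and Insig2 fell. With GF serum the Insig1 call did not hold with some libraries left out, as given below. In GF against ConvR female serum 6 of 36 members passed the test (16.7%), with 6.41% of all genes called (2.86% as rises and 3.54% as falls). These were 2 of 5 regulators, 4 of 14 fatty acid synthesis genes and 0 of 17 sterol synthesis enzymes. In ConvR male against ConvR female serum 8 members passed (22.2%), with 8.8% of all genes called (3.95% as rises and 4.85% as falls). They were 3 regulators, 4 fatty acid synthesis genes and 1 sterol synthesis enzyme.

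Insig1 (ENSMUSG00000045294, mm10 chromosome 5, 28071363 to 28078662) holds SCAP in the endoplasmic reticulum. It stood at 89.5 and 101 CPM in GF serum, 108, 118 and 134 CPM in ConvR male serum, and 61.9 and 69.1 CPM in ConvR female serum. Every library of GF or ConvR male serum lay above those of ConvR female serum, and the GF libraries lay below those of ConvR male serum. With so few libraries such separation was common: 49.9% of all genes tested did not overlap between GF and ConvR female serum, 34.9% between ConvR male and ConvR female serum, and 24.3% between GF and ConvR male serum. The difference from ConvR female serum was 0.54 ± 0.103 on the log2 scale (SE; adjusted p = 0.00551) with GF serum and 0.88 ± 0.0957 (adjusted p = 4.57e-05) with ConvR male serum. The first of these calls was lost without ConvR female serum replicate 2 (0.46, adjusted p = 0.0846) and without GF replicate 3 (0.45, adjusted p = 0.0785). The second was kept without each of its libraries.

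Insig2 (ENSMUSG00000003721, chromosome 1, 121304353 to 121332589), the second SCAP anchor, ran the other way. It stood at 70.9 and 68.0 CPM in GF serum, 73.7, 60.9 and 64.1 CPM in ConvR male serum, and 95.2 and 97.2 CPM in ConvR female serum. The libraries of ConvR female serum were above all others of female cells in these sera. The log2 difference was -0.47 ± 0.0818 with GF serum (adjusted p = 0.00335) and -0.54 ± 0.0739 with ConvR male serum (adjusted p = 0.000316), and both calls were kept without each library. Per kilobase of exon, the ratio of Insig1 to Insig2 was 1.42 and 1.67 in GF serum, 1.64, 2.18 and 2.35 in ConvR male serum, and 0.731 and 0.797 in ConvR female serum. In male cells with ConvR male serum it was 0.705, 0.728 and 0.830. This ratio was formed after the values were seen and has no test.

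**Figure D1:**
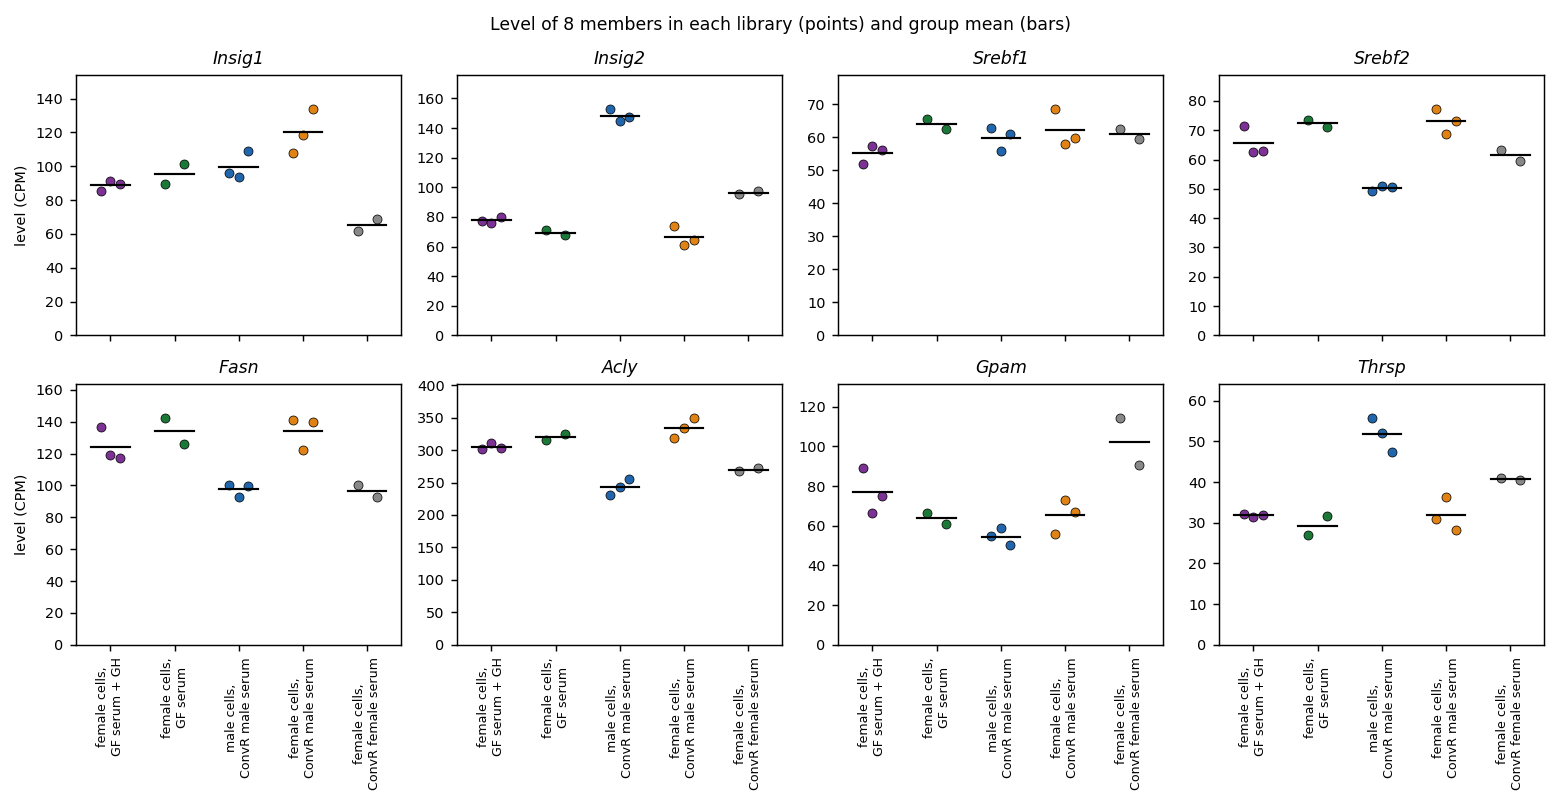
Level in CPM of 8 members in each library (points), with the group mean as a bar, from female cells in GF serum with growth hormone at the left to female cells in ConvR female serum at the right. Insig1 is lowest in ConvR female serum (61.9 and 69.1 CPM), Insig2 is highest in male cells (145 to 153 CPM), and Srebf1 stays between 51.9 and 68.8 CPM throughout.

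The SREBP genes themselves moved less. Srebf2 (chromosome 15, 82147181 to 82205379) stood at 73.6 and 71.1 CPM in GF serum, 77.4, 68.9 and 73.1 CPM in ConvR male serum, and 63.2 and 59.6 CPM in ConvR female serum. It rose by 0.25 ± 0.0730 with ConvR male serum (adjusted p = 0.0420), a call lost with library size scaling (adjusted p = 0.0512), without the low-count filter (0.0890), with the replicate block (0.0881), with only the groups compared (0.170) and without both Xist-rich libraries (0.0637). It was also lost without ConvR male serum replicate 1 (0.21, adjusted p = 0.128) or 3 (0.25, adjusted p = 0.0671) and without ConvR female serum replicate 2 (0.29, adjusted p = 0.106) or 3 (0.21, adjusted p = 0.230). With GF serum the difference was 0.24 ± 0.0795 and did not pass (adjusted p = 0.0913). Srebf1 (chromosome 11, 60199089 to 60222581) stood at 65.6 and 62.7 CPM in GF serum, 68.8, 58.0 and 59.7 CPM in ConvR male serum, and 62.5 and 59.5 CPM in ConvR female serum. Its differences were 0.07 (95% interval -0.12 to 0.26) and 0.03 (-0.15 to 0.20), so these data bound them within about those limits. Mlxipl differed by 0.01 with GF serum and by -0.06 with ConvR male serum, and neither passed.

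Among the fatty acid synthesis genes, the same 4 passed in both sera: Fasn and Acly rose, and Gpam and Thrsp fell. Fasn, fatty acid synthase (chromosome 11, 120805846 to 120824547), stood at 142 and 126 CPM in GF serum, 141, 122 and 139.7 CPM in ConvR male serum, and 100.02 and 92.7 CPM in ConvR female serum. Neither serum's libraries overlapped those of ConvR female serum, as for 49.9% (GF) and 34.9% (ConvR male) of all genes, and the difference was 0.48 ± 0.0949 with GF serum (adjusted p = 0.00709) and 0.48 ± 0.0875 with ConvR male serum (adjusted p = 0.00305). Acly, ATP citrate lyase, stood at 315 and 324 CPM in GF serum, 318, 334 and 349 CPM in ConvR male serum, and 268 and 272 CPM in ConvR female serum. Its rises were small, 0.24 (adjusted p = 0.0437) and 0.31 (adjusted p = 0.00626). With GF serum, Fasn lost its call without GF replicate 2 (0.39, adjusted p = 0.0968) and Acly no longer passed whichever 1 of the 4 libraries was dropped (0.22 to 0.26, adjusted p from 0.0950 to 0.243). The Acly call with GF serum was also lost with library size scaling (adjusted p = 0.0621), without the low-count filter (0.0954) and with only the groups compared (0.133). With ConvR male serum, Acly lost its call without ConvR female serum replicate 2 (0.29, adjusted p = 0.0582).

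Gpam, the mitochondrial glycerol-3-phosphate acyltransferase that begins triglyceride synthesis (chromosome 19, 55067268 to 55127238), had the largest fall of the members. It stood at 66.7 and 60.9 CPM in GF serum, 56.0, 73.1 and 67.2 CPM in ConvR male serum, and 114 and 90.6 CPM in ConvR female serum. The log2 difference was -0.68 ± 0.142 with GF serum (adjusted p = 0.00912) and -0.65 ± 0.128 with ConvR male serum (adjusted p = 0.00493). The libraries of ConvR female serum were also the most spread for this gene. Without replicate 2 of that serum the differences were -0.51 (adjusted p = 0.133) and -0.47 (adjusted p = 0.0862), and without GF replicate 3 the first was -0.62 (adjusted p = 0.0992). Thrsp, the lipogenic protein Spot 14 that thyroid hormone induces, stood at 27.1 and 31.6 CPM in GF serum, 30.9, 36.4 and 28.3 CPM in ConvR male serum, and 41.0 and 40.5 CPM in ConvR female serum. Its differences were -0.48 (adjusted p = 0.0149) and -0.36 (adjusted p = 0.0308). The first was lost without ConvR female serum replicate 2 (-0.47, adjusted p = 0.0954) or GF replicate 2 (-0.37, adjusted p = 0.156), and the second without each library other than ConvR male serum replicate 2 (adjusted p from 0.0898 to 0.133).

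The other 10 fatty acid synthesis genes did not pass in either comparison. Their log2 differences ran from -0.31 to 0.23 with GF serum and from -0.38 to 0.26 with ConvR male serum. Acacb had the lowest value in both (-0.31 and -0.38), but these turned on single libraries of ConvR female serum. Without its replicate 2 they were -0.023 and -0.090, and without its replicate 3 they were -0.56 and -0.62, where the second passed (adjusted p = 0.0242). Over all 14, the median was -0.05 with GF serum and 0.00 with ConvR male serum, and over all genes tested it was -0.00 and 0.00. In each, 7 members had a positive and 7 a negative difference.

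Of the 17 sterol synthesis enzymes, 0 passed with GF serum and 1 with ConvR male serum (5.88%), against 6.41% and 8.8% of all genes. Among 17 genes such counts are near those shares. Some enzymes that did not pass differed by as much as Acly, which did. With GF serum, edgeR called 0 of 17 (5 at an unadjusted p under 0.05). DESeq2 called 1, with 1534 of 14142 genes called in all. The differences ran from -0.40 for Hsd17b7, the 3-ketosteroid reductase of the pathway (adjusted p = 0.0504), to 0.31 for Fdft1, squalene synthase (adjusted p = 0.122). The median was 0.03, and 10 were positive and 7 negative. Hsd17b7 stood at 42.0 and 46.1 CPM in GF serum, 39.9, 54.8 and 50.2 CPM in ConvR male serum, and 59.4 and 56.8 CPM in ConvR female serum. It was the 1 enzyme that DESeq2 called (-0.40, adjusted p = 0.0194). Fdft1 shares 18.3% of its exon bases with Ctsb on the other strand, which has more counts. With no strand setting given, reads of the pair may not be told apart.

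With ConvR male serum the 1 call was a fall of Dhcr7, the last reductase of one branch to cholesterol. It stood at 16.6 and 17.3 CPM in GF serum, 18.1, 14.7 and 15.9 CPM in ConvR male serum, and 22.8 and 19.2 CPM in ConvR female serum. The difference was -0.37 ± 0.109 (adjusted p = 0.0432) with ConvR male serum and -0.31 (adjusted p = 0.145) with GF serum. The call was lost without ConvR female serum replicate 2 (-0.25, adjusted p = 0.336) and without ConvR male serum replicate 2 (-0.31, adjusted p = 0.110) or 3 (-0.36, adjusted p = 0.0839). The 16 others ran from -0.27 to 0.33, with the highest value in Nsdhl, a sterol C4 decarboxylase (adjusted p = 0.0990), and the median of all 17 was 0.09. Hmgcs1, named for its high level after its values were seen, stood at 352 and 343 CPM in GF serum, 285, 326 and 382 CPM in ConvR male serum, and 319 and 353 CPM in ConvR female serum. Its groups overlapped, with differences of 0.05 and -0.02.

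**Figure D2:**
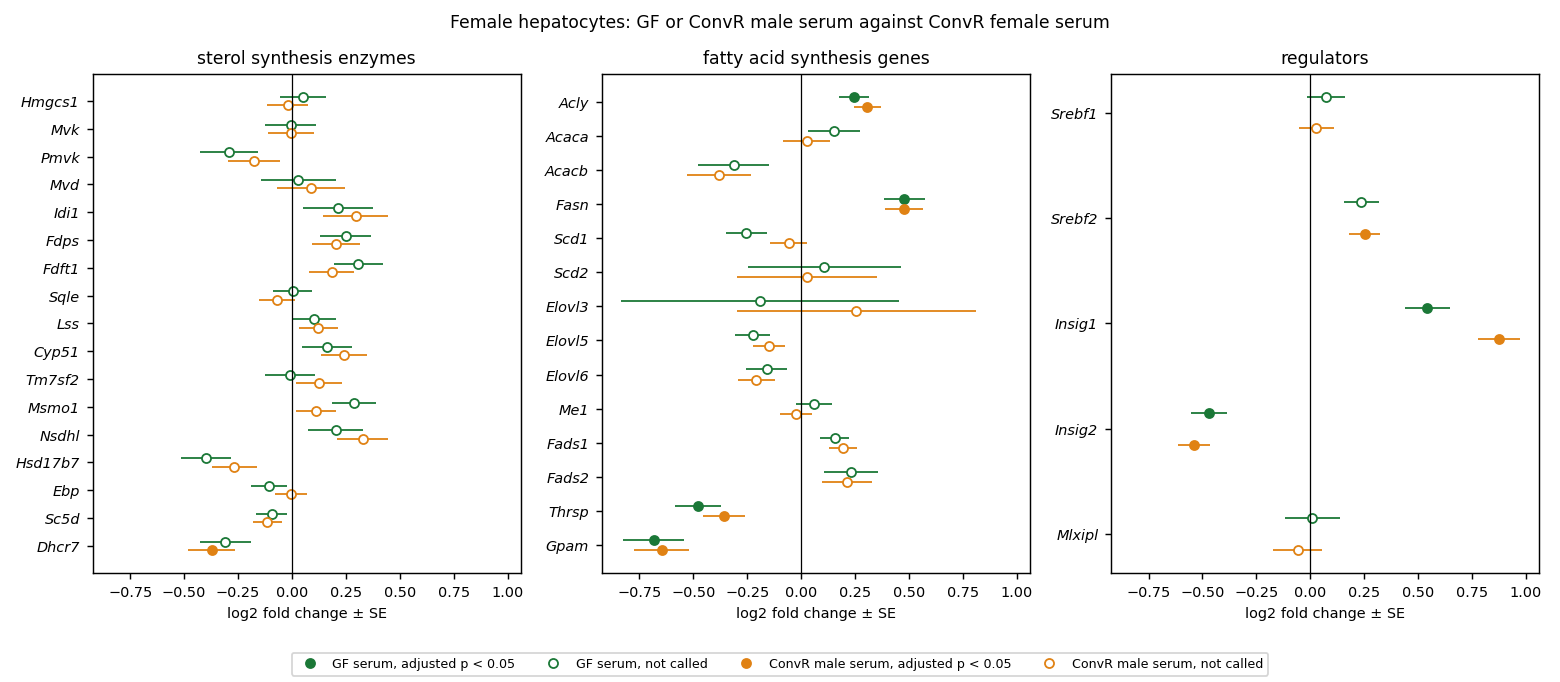
Log2 fold change with its SE for each of the 36 members in female hepatocytes, in GF serum (green) and in ConvR male serum (orange) against ConvR female serum, with filled points where the adjusted p was under 0.05. The filled points are Insig1, Fasn and Acly above 0 and Insig2, Gpam and Thrsp below 0 in both sera, with Srebf2 and Dhcr7 added in ConvR male serum.

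GF female serum was next compared directly with ConvR male serum. These sera differ in the sex of the donors and in their microbiota, which cannot be told apart. edgeR called 0 of 36 members (2 at an unadjusted p under 0.05), with 0.448% of all genes called (0.184% as rises and 0.264% as falls). The lowest adjusted p was that of Insig1 (-0.33 ± 0.0939, adjusted p = 0.146), which DESeq2 called (adjusted p = 0.0479). Without the low-count filter it also passed (adjusted p = 0.0074). Differences of the sterol synthesis enzymes ran from -0.13 to 0.17 and those of the fatty acid synthesis genes from -0.45 to 0.13, where the lowest value was that of Elovl3, with 4 counts in each GF library and 4 to 7 in each library of ConvR male serum. Insig2 differed by 0.07 (95% interval -0.09 to 0.23).

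A list of 28 further genes of the same pathways gave the surroundings of the members. In GF against ConvR female serum 1 of them rose and 2 fell (10.7%, against 6.41% of all genes). The falls were those of Pklr, the liver pyruvate kinase that ChREBP induces (67.5 ± 3.81 and 99.6 ± 21.7 CPM, SD, n = 2 each; -0.56, adjusted p = 0.0217), and of Nr1h3, which encodes the oxysterol receptor LXR-alpha (32.0 ± 3.44 and 43.6 ± 2.38 CPM; -0.45, adjusted p = 0.0344). In ConvR male against ConvR female serum 1 rose and 3 fell (14.3%, against 8.8% of all genes). Pklr fell by 0.70 (adjusted p = 0.00229), Dgat2, which completes triglycerides, by 0.50 (adjusted p = 0.0140) and Acss2, which activates acetate, by 0.37 (adjusted p = 0.0448). The median of the 28 was 0.02 with GF serum and 0.04 with ConvR male serum. Macrophage markers summed to 124 to 133 CPM in GF serum, 76.1 to 96.3 CPM in ConvR male serum and 103 to 112 CPM in ConvR female serum, and of the 6 hepatocyte markers Apoa1 (-0.97) and Hnf4a (-0.43) fell with GF serum and 0 were called with ConvR male serum. With ConvR male serum the macrophage marker Cd68 fell (-0.38, adjusted p = 0.0366) and the cholangiocyte marker Sox9 rose (0.79, adjusted p = 0.0242). Cd68 and Sox9 made up most of the macrophage and cholangiocyte sums. The other markers of both lists were not called in either serum against ConvR female serum. In GF against ConvR male serum Cd68 was higher (0.65, adjusted p = 0.0165), and the other markers tested were not called. The 4 cholangiocyte markers summed to 19.7 to 19.8 CPM in GF serum, 21.7 to 31.4 CPM in ConvR male serum and 10.2 to 19.6 CPM in ConvR female serum. Their part in the differences of the members was not tested.

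Growth hormone for 2 h left no member past the test. In GF serum edgeR and DESeq2 each called 0 of 36 members with hormone against vehicle (edgeR 3 at an unadjusted p under 0.05), with 0.586% of all genes called (0.511% as rises and 0.0747% as falls). The fatty acid synthesis genes ran from -0.63 for Scd2, at 23 to 38 counts per hormone library, to 0.27 for Gpam, and had a median of 0.09. The sterol synthesis enzymes ran from -0.12 to 0.30 with a median of 0.08, and 13 of 17 were positive. The share of positive differences over all genes was not counted. Many of these enzymes were highest or lowest in the same library, so the 17 signs are not separate observations. Hsd17b7 stood highest among them, at 59.6, 51.2 and 51.5 CPM with hormone and 42.0 and 46.1 CPM with vehicle (0.30, adjusted p = 0.272). Srebf1 stood at 51.9, 57.3 and 56.2 CPM with hormone and 65.6 and 62.7 CPM with vehicle. Its libraries did not overlap, as for 32% of all genes in this comparison, and the difference of -0.22 (95% interval -0.39 to -0.05) did not pass over all genes (adjusted p = 0.283). Insig2 differed by 0.17 (adjusted p = 0.375) and Insig1 by -0.10 (adjusted p = 0.685), Srebf2 by -0.14 and Mlxipl by -0.02. Of the 28 further genes 0 passed in edgeR, with 4 at an unadjusted p under 0.05; DESeq2 was not counted for them.

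The comparison of male with female cells had the most members called. It was made in the same ConvR male serum, where 18 of 36 members passed (50%), with 36.7% of all genes called (17.6% as rises and 19% as falls). In male cells 8 members rose and 10 fell. Insig2, Thrsp, Scd1 and Elovl3 were higher, and Srebf2, Acly, Fasn, Elovl6 and Acacb were lower. The summed hepatocyte markers were also higher in male cells (26523 to 27117 CPM) than in female cells of this serum (13082 to 13883 CPM), a sum made up mostly of Alb. Alb (1.39), Apoa1 (1.94) and Serpina1b (2.11) rose, as did Ttr, Hnf4a fell (-0.33, adjusted p = 0.00214) and Apob did not pass (-0.07). The endothelial markers summed to 22.6 to 25.6 and 7.87 to 9.67 CPM in male and female cells, the macrophage markers to 146 to 165 and 76.1 to 96.3 CPM, the stellate cell markers to 10.1 to 12.5 and 4.45 to 5.57 CPM and the cholangiocyte markers to 16.7 to 19.2 and 21.7 to 31.4 CPM. Pecam1, Stab2, Clec4g, Cd68, Reln, Pdgfrb and Epcam were called as rises and Col1a1 and Sox9 as falls among the 16 markers of these 4 lists. Cd68 made up most of the macrophage sum, and Clec4f (-0.04), Adgre1 (-0.52) and Csf1r (-0.27) were not called. Sox9 made up most of the cholangiocyte sum. The part of these differences in those of the members was not tested.

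Of the 5 regulators 1 rose and 3 fell in male cells. Insig2 stood at 153, 145 and 147 CPM in male cells and 73.7, 60.9 and 64.1 CPM in female cells, a log2 difference of 1.16 ± 0.0675 (adjusted p = 1.40e-09). It was kept without each library (1.11 to 1.25). Srebf2 stood at 49.3, 50.8 and 50.5 CPM in male cells and 77.4, 68.9 and 73.1 CPM in female cells (-0.54 ± 0.0657, adjusted p = 7.85e-06). Insig1 fell by 0.27 (adjusted p = 0.0179) with overlapping libraries, 96.2, 93.9 and 109 CPM in male cells and 108, 118 and 134 CPM in female cells. Mlxipl fell by 0.31 (adjusted p = 0.0285), at 28.3, 23.7 and 22.6 CPM in male cells and 35.3, 30.3 and 27.0 CPM in female cells. Srebf1 did not pass (-0.05, 95% interval -0.21 to 0.10). The calls of Insig1 were lost without male replicate 1 (-0.23, adjusted p = 0.0811) or 2 (-0.22, adjusted p = 0.0962) and without female replicate 3 (-0.18, adjusted p = 0.0985). Those of Mlxipl were lost without male replicate 2 (-0.27, adjusted p = 0.113) or 3 (-0.24, adjusted p = 0.145) and without female replicate 1 (-0.21, adjusted p = 0.151).

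The fatty acid synthesis genes split, with 4 rises, 4 falls and 6 that did not pass. Elovl3, an elongase of very long chain fatty acids that is known to be higher in male mouse liver (chromosome 19, 46131897 to 46135694), had 52, 51 and 78 counts in male cells and 7, 5 and 4 counts in female cells. These counts are low, and Elovl3 passed the low-count filter only through the male libraries. Its log2 difference of 3.59 ± 0.383 came from levels of 1.40 to 2.25 CPM in male and 0.101 to 0.187 CPM in female cells. Its adjusted p (2.16e-06) is therefore not taken as support, though the gene is counted among the 4 rises. Thrsp stood at 55.7, 52.1 and 47.4 CPM in male cells and 30.9, 36.4 and 28.3 CPM in female cells (0.70 ± 0.0881, adjusted p = 1.14e-05). Scd1 stood at 305, 327 and 297 CPM in male cells and 199, 215 and 222 CPM in female cells (0.55 ± 0.0771, adjusted p = 3.83e-05). Me1, the cytosolic malic enzyme that supplies NADPH, rose by 0.31 (adjusted p = 0.00195). Male and female libraries did not overlap for these 4 genes, as for 47.6% of all genes in this comparison.

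The falls were those of Acly, Fasn, Elovl6 and Acacb. Acly stood at 231, 243 and 256 CPM in male cells and 318, 334 and 349 CPM in female cells (-0.46 ± 0.0561, adjusted p = 9.00e-06). Fasn stood at 100.2, 92.5 and 99.7 CPM in male cells and 141, 122 and 139.7 CPM in female cells (-0.46 ± 0.0777, adjusted p = 0.000207). Elovl6, which extends palmitate to stearate, stood at 23.7, 27.6 and 26.7 CPM in male cells and 32.7, 35.3 and 41.0 CPM in female cells (-0.48, adjusted p = 0.000165). Acacb stood at 7.22, 5.82 and 5.99 CPM in male cells and 10.6, 10.3 and 9.11 CPM in female cells (-0.66, adjusted p = 0.00175). Every male library was below every female library for these 4 genes, within the same background of 47.6% of genes without overlap. The 6 that did not pass ran from -0.26 for Gpam (adjusted p = 0.0923) to 0.40 for Scd2 (adjusted p = 0.303).

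The sterol synthesis enzymes also went both ways, with 3 rises and 3 falls among 17 (35.3%), near the 36.7% of all genes called. Their median was -0.02, where the median of all genes was -0.02. Mvd, the mevalonate diphosphate decarboxylase, had the largest fall (-0.56 ± 0.146, adjusted p = 0.00615), at 8.02, 8.38 and 10.3 CPM in male cells and 11.0, 15.6 and 12.9 CPM in female cells. Mvk, mevalonate kinase (-0.28, adjusted p = 0.0311), and Lss, lanosterol synthase (-0.24, adjusted p = 0.0286), also fell. Dhcr7 rose by 0.34 (adjusted p = 0.0136), at 20.8, 19.6 and 21.1 CPM in male cells and 18.1, 14.7 and 15.9 CPM in female cells. Sc5d, the sterol C5 desaturase, rose by 0.26 (adjusted p = 0.00265) and Fdps, farnesyl diphosphate synthase, by 0.28 (adjusted p = 0.0379). The 11 others ran from -0.26 to 0.20. The enzymes called numbered 2 without female replicate 2, 3 without male replicate 1 and 3 without male replicate 3, and regulators called numbered 2 without male replicate 2. Of the 6 libraries compared, dropping 1 ended the call of Mvk in 4 cases, of Fdps in 4 and of Lss in 5 (adjusted p for Mvk from 0.0554 to 0.145, for Fdps from 0.0544 to 0.159 and for Lss from 0.0550 to 0.145). Dhcr7 lost its call without female replicate 2 (0.27, adjusted p = 0.0604).

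**Figure D3:**
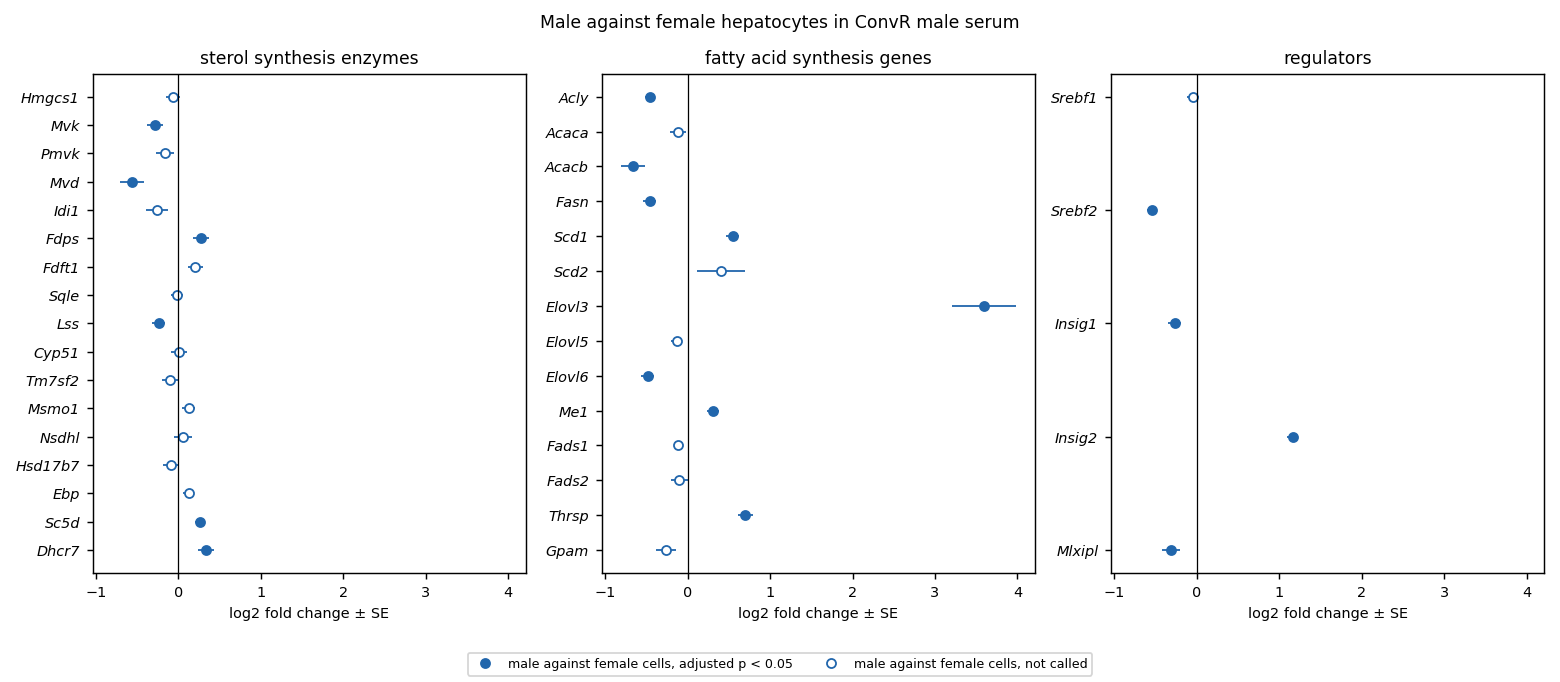
Log2 fold change with its SE for each of the 36 members in male against female hepatocytes in ConvR male serum, with filled points where the adjusted p was under 0.05. Elovl3, which passed the low-count filter only through the male libraries, lies furthest right at 3.59. Insig2 at 1.16 leads the regulators, and rises and falls stand side by side among the enzymes.

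Of the 28 further pathway genes, 5 rose and 9 fell in male cells (50%, against 36.7% of all genes), with a median of -0.06. Among them were Scap, the escort of SREBPs, at 94.2 ± 2.19 CPM in male and 125 ± 4.20 CPM in female cells (SD, n = 3 each; -0.41, adjusted p = 5.95e-05), and Pklr at 108 ± 5.20 and 61.5 ± 4.02 CPM (0.82, adjusted p = 2.68e-05). Acss2 fell by 0.41 (adjusted p = 0.00446), Aacs, acetoacetyl-CoA synthetase, by 0.30 (adjusted p = 0.000912), and Pgd, an NADPH-producing enzyme of the pentose phosphate pathway, rose by 0.38 (adjusted p = 0.000274).

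Within some groups, many of the sterol synthesis enzymes were lowest or highest in the same library. How often this held over all genes was not counted, so it is not shown to be particular to these enzymes. In female cells with ConvR male serum, replicate 1 was the lowest of the group for 13 of the 17, with a median deviation of -0.17 on the log2 scale from the group mean. With growth hormone, replicate 2 was the lowest for 17 and replicate 1 the highest for 15 (medians -0.10 and 0.11). In GF serum replicate 2 was the lower for 15, and in ConvR female serum replicate 2 was the lower for 12. In male cells replicates 1, 2 and 3 were the lowest for 6, 10 and 1. Of the 14 fatty acid synthesis genes in the hormone group, replicate 1 was the highest for 12 and replicate 2 the lowest for 10. In GF serum these genes were even, with 7 and 7. These deviations stand beside median differences of the sterol enzymes between sera of 0.03 and 0.09.

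**Figure D4:**
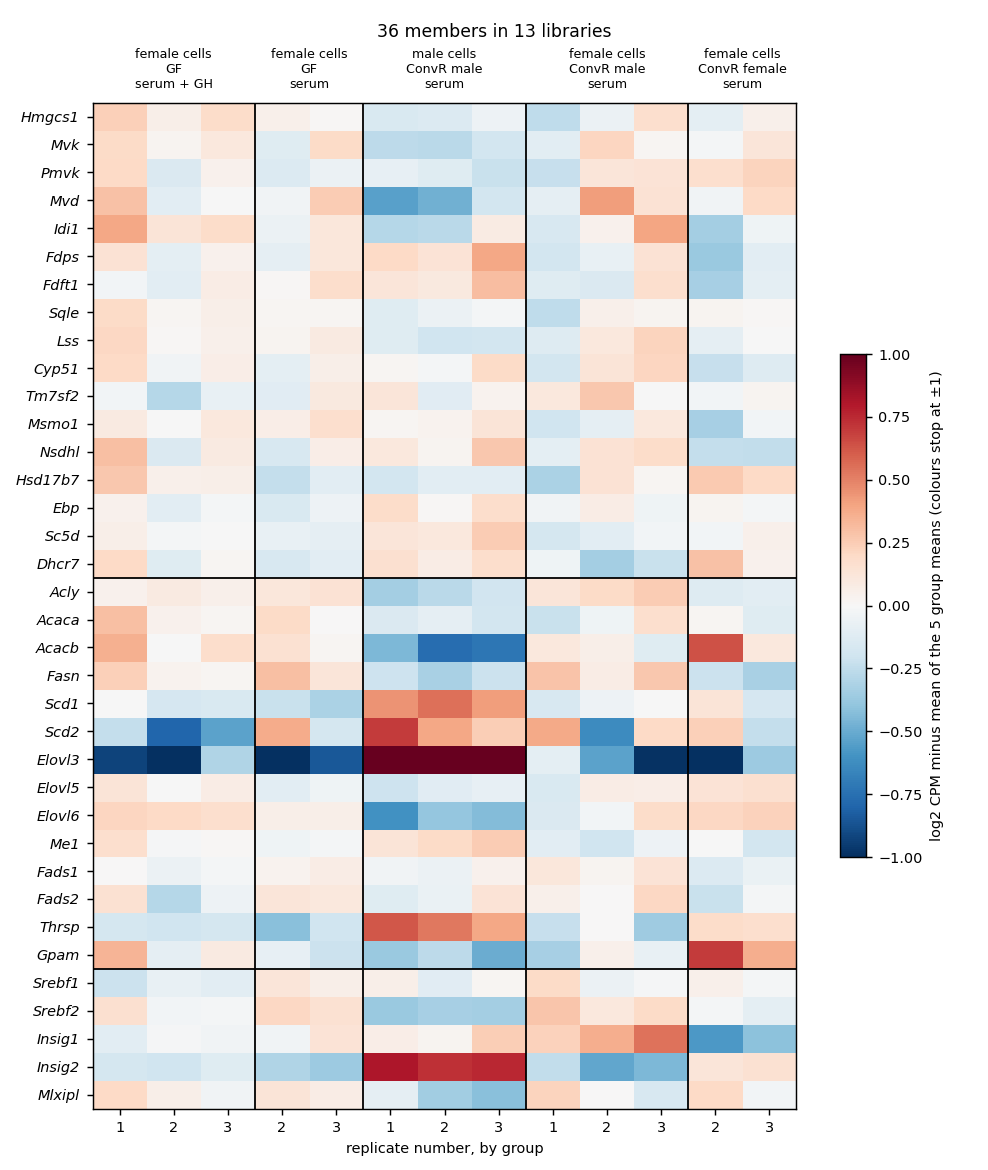
Each of the 36 members (rows, in the order sterol enzymes, fatty acid genes, regulators) in 13 libraries (columns, by group), as log2 CPM minus the mean of the 5 group means, with colours stopping at 1 on either side. Male cells stand apart in Elovl3, Insig2, Thrsp and Scd1 (high) and in Acacb, Elovl6 and Srebf2 (low), and ConvR female serum in Insig1 (low) and Gpam (high).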

How the data were processed

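The deposited table holds unscaled whole-number counts for each gene. Reads were aligned with STAR 2.4.0i to mm10, per the submitters' processing notes; no source used here gives the counting program, annotation or strand setting. Per the labels' protocols, 250 ng of total RNA went into stranded libraries after ribosomal RNA depletion, with 12 PCR cycles and 2 reads of 100 cycles per fragment. The 2 columns that share 1 name were not used, which left 13 of 15 samples in 5 groups, where the design had listed all 15.

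Counts were filtered (filterByExpr, minimum count 10), scaled by TMM and fitted in 1 model of the 5 groups without covariates (edgeR 4.0.16, R 4.3.3; 8 residual degrees of freedom, coefficient of variation 9.02%). Each of 5 comparisons used the two-sided quasi-likelihood F test with Benjamini-Hochberg adjustment over 17405 genes and a threshold of 0.05. Intervals are 95% intervals of the log2 difference, unadjusted. Exon lengths and coordinates are those of GENCODE M21 (GRCm38, the build mm10). Chi-square divided by its degrees of freedom was 5.46 to 53.4 between replicates (genes with at least 20 counts), so each counted as 1 sample. The method was tested on simulated data. The members and lists were chosen with earlier results of these data known. Values per library were given for up to 8 called members per class and comparison and for the regulators, and up to 4 of those not called. Alternatives were DESeq2 1.42.0, library size scaling, no low-count filter, only the groups compared, a replicate block and libraries left out. Some further genes of the pathways are not reported here by name.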

Additional observations from a re-analysis of the deposited data

How the results depend on the processing

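The results rest on 2 or 3 libraries per group. Where 1 is left out of 2, the lone library is assumed to vary like the other groups. With 1 library left out at a time, the number of all genes called is not given, so those member counts have no background beside them. Leaving out 1 library at a time, GF against ConvR female serum called 0 to 1 sterol synthesis enzymes, 1 to 4 fatty acid synthesis genes and 1 to 2 regulators. ConvR male against ConvR female serum called 0 to 2, 1 to 5 and 2 to 3, and male against female cells 2 to 7, 8 to 10 and 2 to 4; GF against ConvR male serum and growth hormone against vehicle called 0 in each class every time. Without both libraries richest in Xist, ConvR female serum kept a lone library, so only effect sizes are given. Calls then fell over all genes as well as among the members. With GF serum the members that lost their calls were Insig1 (0.46), Gpam (-0.51), Thrsp (-0.47) and Acly (0.23). With ConvR male serum they were Dhcr7 (-0.25), Thrsp (-0.35), Acly (0.29) and Srebf2 (0.29).

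With GF against ConvR female serum, sterol synthesis enzymes called numbered 1 with library size scaling and 3 without the low-count filter. They numbered 1 with only the groups compared and 1 with DESeq2. Over all genes these settings called 1134 of 17405, 1731 of 35445, 611 of 16306 and 1534 of 14142. With ConvR male serum the sterol synthesis enzymes called numbered 3 without the filter, with 2064 of 35445 genes called. They numbered 0 with only the groups compared (468 of 16450 genes called), which left 2 fatty acid synthesis genes. GF against ConvR male serum called 1 regulator (Insig1) without the filter (622 of 35445 genes called) and 1 with DESeq2 (301 of 14829). Without the filter, growth hormone called 1 sterol synthesis enzyme (Hsd17b7) and 1 fatty acid synthesis gene (Gpam), with 796 of 35445 genes called. Library size scaling moved the median of all genes to -0.11 in male against female cells. The cause of these changes was not tested.

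A replicate block raised the sterol synthesis enzymes called with GF serum to 2, with 981 of 17405 genes called. It ended the calls of Srebf2 (0.22, adjusted p = 0.0881) and Thrsp (-0.37, adjusted p = 0.0503) with ConvR male serum. Of 23 pairs of libraries with the same replicate number in different groups, 1 had deviations from the group means that correlated above 0.1 across genes (-0.17 to 0.13), so the numbers were not taken to pair the libraries.

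Signs turned only in members not called. Mlxipl became -0.0020 in GF against ConvR female serum without the filter and ran from -0.10 to 0.12 with 1 library left out. In ConvR male against ConvR female serum it became 0.052 without both Xist-rich libraries and ran from -0.17 to 0.053, and there Srebf1 ran from -0.052 to 0.075. In GF against ConvR male serum Srebf2 became 0.00083 with library size scaling and 0.017 with the block and ran from -0.057 to 0.028, Srebf1 ran from -0.0023 to 0.12 and Mlxipl from -0.019 to 0.18. With growth hormone Mlxipl ran from -0.092 to 0.030 and Elovl3 from -0.038 to 0.37, and in male against female cells Srebf1 ran from -0.10 to 0.027.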
